A study of Mus musculus with 24 samples.

Results

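Thioacetamide (TAA) injury added to livers that carry the AKT and c-Met oncogene plasmids is described here over all measured genes. The comparison rests on 7 of the 24 libraries of the series, found by sample title: 4 titled SB/AKT/c-Met + TAA and 3 titled SB/AKT/c-Met + saline, called c-Met + TAA and c-Met + saline livers from here on. All 7 came from male C57BL/6JAusb mice, 14 to 15 weeks old at hydrodynamic tail vein injection (HTVI), a rapid large-volume injection that carries plasmid DNA into a share of hepatocytes. Every one of them received 0.8 µg of a plasmid for the Sleeping Beauty (SB) transposase, 10 µg of a myr-AKT plasmid, which encodes a membrane-anchored and therefore active AKT kinase, and 10 µg of a c-Met plasmid, which encodes the human MET receptor tyrosine kinase behind an EF1a promoter. From 8 to 10 days after HTVI, mice were injected intraperitoneally 10 to 11 times over 5 to 6 weeks. The c-Met + TAA mice got 100 mg/kg TAA at the first injection and 200 mg/kg at each later one, and the c-Met + saline mice got saline. Livers of 5 SB/AKT/NRas + TAA, 4 SB/AKT/NRas + saline, 4 SB + TAA and 4 SB + saline mice set the effect of TAA beside that in other livers. These libraries also enter the count filter and the shared estimate of spread behind every test. Their mice, male C57BL/6J per the paper, were of the same age and got TAA or saline on the same schedule. AKT/NRas mice received 0.8 µg of SB plasmid, 10 µg of myr-AKT plasmid and 10 µg of an NRas plasmid. SB mice received 0.8 µg of SB plasmid alone. Each library is whole snap-frozen liver tissue of 1 mouse, so transfected and untransfected hepatocytes, any tumor and all other cells were read together, and fewer cells of a type cannot be told apart from less RNA per cell.

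TAA is a liver toxin that becomes harmful only once hepatocytes oxidise it, a step known for the cytochrome P450 Cyp2e1 and for flavin monooxygenases. Cyp2e1 is most abundant around the central vein, the perivenous zone, where hepatocytes also carry glutamine synthetase under the control of Wnt signalling, and repeated TAA doses are known to cause centrilobular necrosis, regeneration and fibrosis. AKT drives the synthesis and storage of fat in hepatocytes and, together with MET, gives rise to lipid-rich hepatocellular tumors in mice. Hepatocytes meet reactive toxins with glutathione, which needs cysteine as a building block, and the transcription factors NRF2 and ATF4 are known to raise genes for its supply.

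The count columns that stand for the plasmids checked the labels first. Human MET was read in each of the 7 AKT/c-Met livers and had 0 counts in all 17 others. It stood at 0.768, 4.92, 5.82 and 10.9 CPM in c-Met + TAA livers, against 5.55, 5.12 and 3.75 CPM in c-Met + saline livers. The c-Met + TAA livers spanned the whole range of the c-Met + saline livers, and the groups did not differ by edgeR's quasi-likelihood test with Benjamini-Hochberg adjustment, the test used throughout (log2 fold change 0.23 ± 0.63, adjusted p = 0.981; ± is the standard error). CPM are counts relative to library size, per 1000000, after adjustment of the libraries by TMM factors. Mouse Met (log2 fold change 0.04) and Akt1 (log2 fold change -0.04) also missed the threshold in this comparison, at adjusted p = 0.992 and 0.998, and the sign of all 3 changed when single livers were left out. Defining hepatocyte genes were abundant in every liver: the 11 tested markers summed to 64490 to 91170 CPM with TAA and 73820 to 86130 CPM with saline, and Alb, the serum albumin gene, missed the threshold (log2 fold change 0.28). Library totals ran over 2571404 to 3244732 counts in c-Met + TAA livers and 2197933 to 2998476 in c-Met + saline livers. The share of reads lost to low mapping quality did not overlap between the groups (43.95 to 49.19% against 49.45 to 51.21%). The part of that share in the results below was not tested. The TMM factors did not overlap either (1.01 to 1.11 against 0.939 to 0.983). With library size alone in place of TMM, 31 of the 38 genes called below kept an adjusted p under 0.05. Outside these 7 livers, SB + TAA replicate 4 held 10950 CPM of skeletal muscle genes, against at most 44.9 CPM elsewhere. That library enters the estimate of spread, and without it 65 genes passed in place of 38.

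Of 19381 genes with enough counts to test, 38 changed between c-Met + TAA and c-Met + saline livers at adjusted p under 0.05 and an absolute log2 fold change over 1, which is 0.196% of them. The 38 comprise 21 that rose (0.108%) and 17 that fell (0.0877%), and with the adjusted p alone 46 genes (0.237%) passed, 26 higher (0.134%) and 20 lower (0.103%). The livers of the groups did not overlap for 21 of the 21 genes that rose and 16 of the 17 that fell, where over all genes tested 5.07% lay wholly higher and 3.99% wholly lower with TAA. At an unadjusted p under 0.05, 911 genes were higher (4.7%) and 774 lower (3.99%), and the median log2 fold change of all genes was 0.02. Whatever the p, 9984 of the 19381 genes had a positive fold change and 9119 a negative one. Leaving out c-Met + saline replicate 3 reduced the 38 calls to 14, leaving out c-Met + saline replicate 1 to 20, and the other single livers gave 26 to 40. Abcc4, Aldh1b1, Cidea, Glul, Gm13775, Maoa, S100g, Slc1a2 and Susd4 passed under each of the 16 alternative settings computed for single genes, and 28 of the 38 missed the threshold in at least 1.

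**Figure D1:**
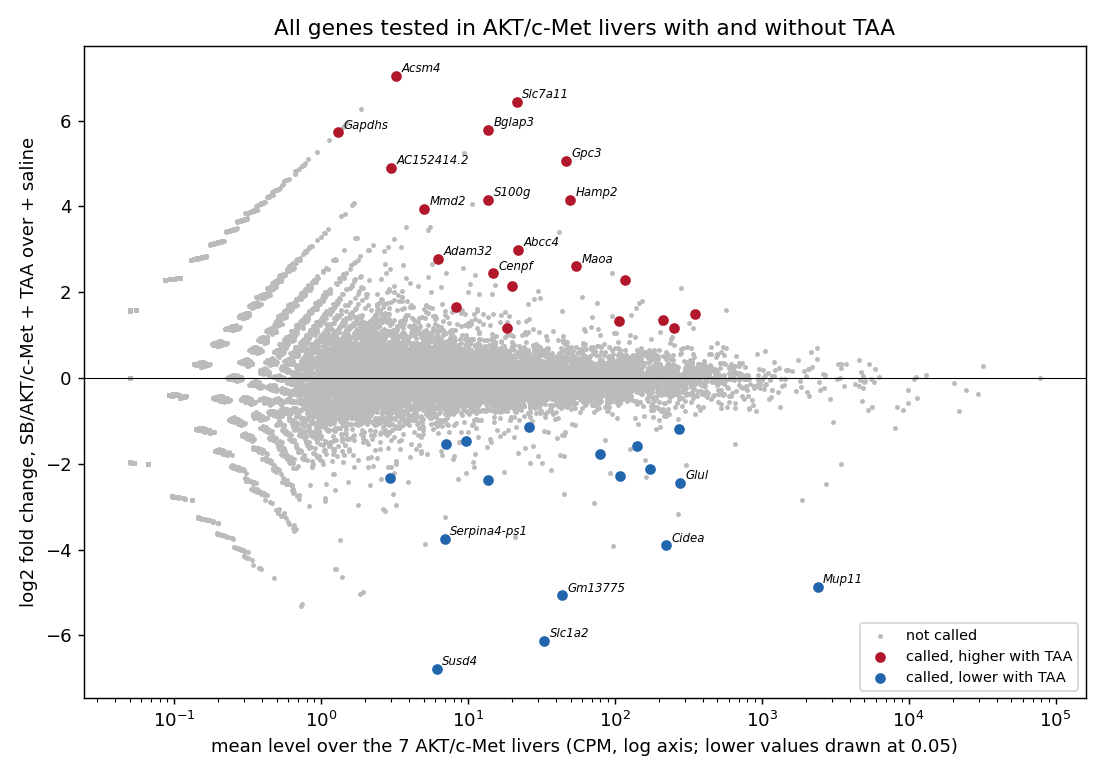
Effect of TAA on every tested gene in AKT/c-Met livers. The x axis is the mean level over the 7 livers in CPM on a log axis, the y axis is the log2 fold change of the 4 c-Met + TAA livers over the 3 c-Met + saline livers, and each point is 1 gene; the 38 genes that passed the test stand out, from Susd4 and Slc1a2 at the bottom to Slc7a11 and Acsm4 at the top, while the median over all 19381 genes was 0.02.

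Slc1a2 and Glul, which mark the glutamine-making rim of hepatocytes around the central vein, fell. Slc1a2 (chr2:102658659-102790784 of GRCm38), a glutamate transporter, stood at 2.3, 0, 1.23 and 0.702 CPM in c-Met + TAA livers, against 72.6, 85.1 and 70.1 CPM in c-Met + saline livers. One c-Met + TAA liver held no count and the highest lay far under the lowest c-Met + saline liver, so the gene fell (log2 fold change -6.13 ± 0.59, adjusted p = 8.9e-07). Glul (chr1:153899944-153909723), glutamine synthetase, which turns glutamate and ammonia into glutamine, stood at 98.7, 117, 101 and 65.2 CPM in c-Met + TAA livers, against 571, 508 and 477 CPM in c-Met + saline livers. All 4 c-Met + TAA livers were under all 3 c-Met + saline livers, and Glul fell (log2 fold change -2.44 ± 0.31, adjusted p = 4.92e-05).

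The promoter that RefSeq gives for Slc1a2 is shown because this gene had the smallest p-value of all; it lies at chr2:102706188-102706437 on the plus strand of GRCm38.p6, inside the longer gene model that the counts used. Capitals mark ATCAAAG, the core bound by TCF/LEF factors of the Wnt pathway, found once on the plus strand starting 207 bases before the transcription start.
Slc1a2 promoter: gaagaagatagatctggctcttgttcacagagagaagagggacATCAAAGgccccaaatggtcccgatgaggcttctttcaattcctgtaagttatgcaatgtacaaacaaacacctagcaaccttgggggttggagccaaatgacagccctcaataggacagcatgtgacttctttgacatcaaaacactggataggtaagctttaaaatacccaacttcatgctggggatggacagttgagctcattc
The letters ATCAAAG were searched on both strands of each whole promoter sequence, which runs on past the bases shown and past the start site. They occur in 3.73% of the 32851 mouse promoters and in a promoter of 4.29% of genes. Among the 31 called genes with a promoter sequence they occur in those of Slc1a2 and Serpina12. A match describes the letters only, and the motifs here were chosen with the results known.

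Other perivenous genes did not move as one. Of the 27 tested members of the perivenous list, 1 rose (Nt5e, an ectonucleotidase that makes adenosine) and 2 fell (Slc1a2 and Glul), with a median log2 fold change of 0, and 7 were higher and 6 lower at an unadjusted p under 0.05. The Wnt targets Axin2 (log2 fold change 0.89 ± 0.40, adjusted p = 0.525) and Rnf43 (log2 fold change 0.72 ± 0.33, adjusted p = 0.544) had positive fold changes, overlapped between groups and missed the threshold. Lhpp, a phosphatase of the same zone, stood at 6.53, 22.9, 15.9 and 11.6 CPM in c-Met + TAA livers, against 27.3, 79.9 and 61.1 CPM in c-Met + saline livers, without overlap, but missed the threshold (log2 fold change -1.98 ± 0.46, adjusted p = 0.0591). Oat, ornithine aminotransferase, likewise did not overlap and missed it (log2 fold change -2.30 ± 0.63, adjusted p = 0.137). Levels of Cyp2e1, the P450 that activates TAA, were 719.9, 698, 979 and 392 CPM in c-Met + TAA livers, against 887, 1279 and 1419 CPM in c-Met + saline livers. Those groups overlapped in 1 liver of each, and Cyp2e1 missed the threshold (log2 fold change -0.78 ± 0.39, adjusted p = 0.585), as did each of the 6 genes for enzymes that activate TAA. Cyp1a2, a P450 of the same zone, had a fold change of opposite sign that missed it as well (log2 fold change 0.44 ± 0.47, adjusted p = 0.869). Of the 22 periportal genes tested, 1 rose, Aldh1b1.

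Aldh1b1 (chr4:45799022-45804604), a mitochondrial aldehyde dehydrogenase, stood at 152, 189.9, 171 and 199 CPM in c-Met + TAA livers, against 37.5, 27.3 and 45.3 CPM in c-Met + saline livers. The lowest c-Met + TAA liver exceeded the highest c-Met + saline liver several-fold, and the gene rose (log2 fold change 2.28 ± 0.28, adjusted p = 3.61e-05). Maoa (chrX:16619698-16687818), monoamine oxidase A, which breaks down serotonin and noradrenaline, stood at 86.8, 134, 95.9 and 22.8 CPM in c-Met + TAA livers, against 11.6, 20.2 and 9.74 CPM in c-Met + saline livers. Replicate 4 was the lowest c-Met + TAA liver by a wide margin yet still above the c-Met + saline livers, and Maoa rose (log2 fold change 2.60 ± 0.38, adjusted p = 0.000411). Nt5e was 28, 41.5, 33.7 and 16.1 CPM in c-Met + TAA livers, against 3.7, 9.91 and 6 CPM in c-Met + saline livers. It did not overlap and rose (log2 fold change 2.15 ± 0.45, adjusted p = 0.0312), although the call was lost without c-Met + saline replicate 1 or 3 or c-Met + TAA replicate 2 or 3 (adjusted p up to 0.224). Maoa and Nt5e were the only 2 of 14 tested genes on the list for breakdown of monoamines and nucleotides to pass, and that list had a median log2 fold change of -0.10.

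Cidea and Fitm1, from the list of lipid droplet genes, fell. Cidea (chr18:67343564-67367794), a protein that fuses lipid droplets and is high in fatty livers, stood at 23, 31.6, 21.1 and 53 CPM in c-Met + TAA livers, against 283, 616 and 546 CPM in c-Met + saline livers. Even the highest c-Met + TAA liver was far under the lowest c-Met + saline liver, and Cidea fell (log2 fold change -3.90 ± 0.46, adjusted p = 2.18e-05). Fitm1 (chr14:55575617-55576954), which helps droplets bud from the endoplasmic reticulum, stood at 31.1, 55.9, 42 and 33.3 CPM in c-Met + TAA livers, against 146, 198 and 251 CPM in c-Met + saline livers. Its groups did not overlap and it fell (log2 fold change -2.29 ± 0.41, adjusted p = 0.00641), with the call lost without c-Met + saline replicate 3 (adjusted p = 0.089). Mogat1, which makes diacylglycerol from monoacylglycerol, was the 1 called gene whose groups overlapped, at 2.69, 7.03, 2.76 and 3.16 CPM in c-Met + TAA livers, against 6.94, 17.1 and 9.74 CPM in c-Met + saline livers. It fell by the test (log2 fold change -1.54 ± 0.34, adjusted p = 0.0451), but the call was lost without c-Met + saline replicate 2 or 3 or c-Met + TAA replicate 1, 3 or 4 (adjusted p up to 0.315).

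Of 20 tested lipid droplet genes, 2 fell and none rose, the median log2 fold change was -0.58, and 11 were lower at an unadjusted p under 0.05. The droplet coat proteins Plin2 (log2 fold change -0.71 ± 0.29, adjusted p = 0.449) and Plin5 (log2 fold change -0.44 ± 0.30, adjusted p = 0.751) overlapped between groups and missed the threshold. Summed over the list, levels were 1875 to 2304 CPM with TAA and 2686 to 4709 CPM with saline, without overlap. Of 31 tested genes of fatty acid and triglyceride synthesis, 1 fell (Mogat1), none rose, and the median was -0.31. Scd1, which makes monounsaturated fatty acids, is the most abundant of them and stood at 5192, 4115, 3004 and 8729 CPM in c-Met + TAA livers, against 13450, 11720 and 10410 CPM in c-Met + saline livers. It did not overlap but missed the threshold (log2 fold change -1.17 ± 0.29, adjusted p = 0.0742), and it passed without c-Met + TAA replicate 4 (adjusted p = 0.0099). Fatty acid synthase, Fasn, overlapped (log2 fold change -0.69 ± 0.31, adjusted p = 0.537). Elovl5, which lengthens polyunsaturated fatty acids, did not overlap and missed the threshold (log2 fold change -0.84 ± 0.21, adjusted p = 0.0742), passing without c-Met + TAA replicate 4. Cidec, the closest relative of Cidea, was lower in each c-Met + TAA liver than in any c-Met + saline liver and missed it too (log2 fold change -1.40 ± 0.38, adjusted p = 0.137).

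Several further genes of lipid and fuel handling changed. Acsl4, which activates arachidonic acid for entry into phospholipids, stood at 332, 341, 355 and 302 CPM in c-Met + TAA livers, against 113, 186 and 142 CPM in c-Met + saline livers and rose (log2 fold change 1.18 ± 0.22, adjusted p = 0.0109). Pdk1, a kinase that inhibits pyruvate dehydrogenase, stood at 15.7, 17.9, 15.6 and 19.6 CPM in c-Met + TAA livers, against 39.8, 38.6 and 36 CPM in c-Met + saline livers and fell (log2 fold change -1.14 ± 0.21, adjusted p = 0.0109). Serpina12, the serpin vaspin, stood at 52.2, 62.2, 90.4 and 82.4 CPM in c-Met + TAA livers, against 274, 298 and 364 CPM in c-Met + saline livers and fell (log2 fold change -2.12 ± 0.41, adjusted p = 0.0132). None of these 3 overlapped between groups. Leaving out 1 liver ended the call of Acsl4 without c-Met + saline replicate 1 or 3 (adjusted p up to 0.101), of Pdk1 without c-Met + saline replicate 1 (adjusted p = 0.0618) and of Serpina12 without c-Met + saline replicate 3 or c-Met + TAA replicate 1 or 2 (adjusted p up to 0.101). Cyp4a14, an omega-hydroxylase raised by the lipid sensor PPARalpha, stood at 129, 284, 149 and 25.3 CPM in c-Met + TAA livers, against 15.3, 51.2 and 12.7 CPM in c-Met + saline livers. Replicate 4 of the c-Met + TAA livers lay within the c-Met + saline range, and the gene missed the threshold (log2 fold change 2.45 ± 0.60, adjusted p = 0.0759) but passed without that liver or without c-Met + saline replicate 2. No gene of fatty acid oxidation and PPARalpha signalling passed among 36 tested (median -0.22, with 5 higher and 5 lower at an unadjusted p under 0.05), nor any of 23 for cholesterol synthesis and uptake (median 0.05, with 0 at an unadjusted p under 0.05).

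Slc7a11 and Abcc4, transporters of cystine and of conjugates, rose. Slc7a11 (chr3:49892526-50443614), the cystine and glutamate exchanger that feeds glutathione synthesis, stood at 51.5, 46.8, 37.1 and 14 CPM in c-Met + TAA livers, against 0.925, 0.342 and 0 CPM in c-Met + saline livers. That is 428 counts over the c-Met + TAA livers and 3 over the c-Met + saline livers, a ratio of 95.7 after scaling for library size (95% exact interval 32.5 to 466, which covers counting error only). No c-Met + saline liver came near the lowest c-Met + TAA liver, replicate 4, and the gene rose (log2 fold change 6.43 ± 0.97, adjusted p = 0.000658), but limma-voom gave it an adjusted p of 0.0752. Abcc4 (chr14:118482692-118706219), an exporter of glutathione and bile acid conjugates on the blood side of the hepatocyte, stood at 41.5, 53.8, 29.1 and 16.1 CPM in c-Met + TAA livers, against 4.16, 4.44 and 4.5 CPM in c-Met + saline livers. Its groups did not overlap, replicate 4 again being the lowest with TAA, and Abcc4 rose (log2 fold change 2.99 ± 0.40, adjusted p = 0.000104). It was the 1 gene of 9 conjugate and drug exporters to pass, where the median log2 fold change was 0.08, and Abcg2, another exporter, was lower without overlap and missed the threshold (log2 fold change -0.63 ± 0.21, adjusted p = 0.266).

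Promoters of these transport genes are shown with the response elements of ATF4 and NRF2, since both factors are known regulators of Slc7a11 and NRF2 of Abcc4. All 3 lie on the minus strand of GRCm38.p6 and are RefSeq sequences written 5′ to 3′ towards the gene: Slc7a11 at chr3:50443614-50443863, Slc1a4 at chr11:20332710-20332963 and Abcc4 at chr14:118706220-118706469. Capitals mark TGATGNAA, the amino acid response element, on either strand for Slc7a11 and Slc1a4, and TGACNNNGC, the antioxidant response element, for Abcc4.
Slc7a11 promoter: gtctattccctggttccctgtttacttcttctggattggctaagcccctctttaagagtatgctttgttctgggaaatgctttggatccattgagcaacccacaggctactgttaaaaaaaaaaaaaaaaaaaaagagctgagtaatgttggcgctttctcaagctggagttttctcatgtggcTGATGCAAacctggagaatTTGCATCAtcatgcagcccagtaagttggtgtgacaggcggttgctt
Slc1a4 promoter: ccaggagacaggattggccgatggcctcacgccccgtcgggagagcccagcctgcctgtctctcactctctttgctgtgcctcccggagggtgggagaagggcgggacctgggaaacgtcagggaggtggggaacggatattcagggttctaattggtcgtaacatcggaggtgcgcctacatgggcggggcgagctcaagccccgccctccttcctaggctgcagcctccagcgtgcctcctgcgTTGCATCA
Abcc4 promoter: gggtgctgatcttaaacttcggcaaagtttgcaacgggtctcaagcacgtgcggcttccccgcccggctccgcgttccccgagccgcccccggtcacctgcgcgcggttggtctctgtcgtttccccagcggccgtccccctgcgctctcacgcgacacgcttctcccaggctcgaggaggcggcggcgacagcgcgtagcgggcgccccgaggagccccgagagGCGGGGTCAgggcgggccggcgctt
TGATGNAA occurs in 3.97% of the 32851 promoters and in a promoter of 4.51% of genes. Among the called genes it occurs in those of Slc7a11, in 2 copies on opposite strands, and Bglap3. The Slc1a4 promoter is included as that of the neutral amino acid carrier nearest outside the threshold, with 1 copy that ends past the start site. TGACNNNGC occurs in 12.4% of promoters and in a promoter of 14% of genes. Of the 31 called genes with a promoter sequence, 3 have it, namely Abcc4, S100g and Fitm1, and Slc7a11 does not. These are matches of letters, searched on both strands, and no binding was measured.

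Slc1a4 carries alanine, serine and cysteine and stood at 9.98, 27.8, 21.8 and 10.5 CPM in c-Met + TAA livers, against 3.24, 4.78 and 5.25 CPM in c-Met + saline livers. It did not overlap and missed the threshold (log2 fold change 1.96 ± 0.44, adjusted p = 0.0557), but passed without c-Met + TAA replicate 1 or 4. Slc1a5, a glutamine carrier of the same family, stood at 10.8, 14.8, 12.9 and 8.77 CPM in c-Met + TAA livers, against 4.16, 4.44 and 2.62 CPM in c-Met + saline livers and rose (log2 fold change 1.65 ± 0.34, adjusted p = 0.0312), with the call lost without c-Met + saline replicate 1, 2 or 3 or c-Met + TAA replicate 2 or 3 (adjusted p up to 0.256). Cth, which makes cysteine from cystathionine, did not overlap either and missed the threshold (log2 fold change 1.29 ± 0.31, adjusted p = 0.0725), passing without c-Met + TAA replicate 1 or 4. On the ATF4 target list 2 of 26 tested genes rose (Slc7a11 and Slc1a5) and none fell, with a median log2 fold change of 0.44 (0.32 with genes at 0 counts in a group set to their bound).

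Of 21 tested NRF2 targets, 2 rose (Slc7a11 and Abcc4), none fell, and the median was 0.34. Nqo1, a quinone reductase (log2 fold change 1.03 ± 0.34, adjusted p = 0.274), and Srxn1, which repairs peroxiredoxins (log2 fold change 1.15 ± 0.35, adjusted p = 0.21), were higher in each c-Met + TAA liver than in any c-Met + saline liver but missed the threshold. G6pdx, the first enzyme of the pentose phosphate pathway and a source of NADPH, stood at 22.6, 25.3, 18.4 and 18.9 CPM in c-Met + TAA livers, against 7.4, 4.44 and 4.87 CPM in c-Met + saline livers. Without overlap it came close to the threshold (log2 fold change 1.95 ± 0.46, adjusted p = 0.0591). Of 22 glutathione conjugation genes 1 rose, Gsta2, an alpha-class glutathione transferase, at 146, 165, 129.7 and 140.3 CPM in c-Met + TAA livers, against 38.9, 89.2 and 45.3 CPM in c-Met + saline livers (log2 fold change 1.32 ± 0.29, adjusted p = 0.0438). Its call was lost without c-Met + saline replicate 1 or 3 or c-Met + TAA replicate 1, 2, 3 or 4 (adjusted p up to 0.293), and since Gsta1 and Gsta2 are near-identical copies, their counts are uncertain.

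Susd4 and Mup11, from the list of male-biased liver genes, fell. Sex differences of the mouse liver are set by the pulse pattern of growth hormone. Susd4 (chr1:182763860-182896591), a regulator of complement listed as male-biased, had 1 count over the 4 c-Met + TAA livers and 108 over the 3 c-Met + saline livers. In CPM it stood at 0, 0, 0.306 and 0 CPM in c-Met + TAA livers, against 15.7, 6.15 and 21 CPM in c-Met + saline livers, the ratio of the groups was 0.00621 (95% exact interval 0.000156 to 0.0354), and it fell (log2 fold change -6.78 ± 0.99, adjusted p = 0.000658).

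Mup11, one of the major urinary proteins, pheromone carriers that male livers secrete, fell as well. It stood at 91.8, 458, 121 and 64.9 CPM in c-Met + TAA livers, against 8466, 1176 and 6444 CPM in c-Met + saline livers. Its c-Met + TAA livers all lay below c-Met + saline replicate 2, the lowest with saline, and it fell (log2 fold change -4.87 ± 1.04, adjusted p = 0.0384), with the call lost without c-Met + saline replicate 1 or 3 or c-Met + TAA replicate 1, 3 or 4 (adjusted p up to 0.162). Gm13775, a gene model at chr4:61783123-61801286 on the chromosome that holds the Mup genes, stood at 3.84, 3.17, 1.23 and 3.51 CPM in c-Met + TAA livers, against 78.7, 85.8 and 129 CPM in c-Met + saline livers and fell (log2 fold change -5.07 ± 0.58, adjusted p = 1.75e-05). Mup genes are near-identical copies, so the division of reads among them is uncertain. Mup17 (log2 fold change -2.84 ± 0.83, adjusted p = 0.176), the male-biased organic anion carrier Slco1a1 (log2 fold change -3.91 ± 1.04, adjusted p = 0.125) and the male-biased P450 Cyp4a12a (log2 fold change -1.92 ± 0.51, adjusted p = 0.118) each lay wholly lower in c-Met + TAA livers and missed the threshold.

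Over the list of male-biased genes, 2 of 27 tested members fell (Susd4 and Mup11), none rose, 14 were lower at an unadjusted p under 0.05, and the median log2 fold change was -1.10. Summed levels were 18590 to 31020 CPM with TAA and 37430 to 57260 CPM with saline. On the female-biased list 1 of 22 rose, Abcc4, none fell, and the median was 0.63. Cyp2a4, a steroid hydroxylase of female liver, stood at 436, 618, 319 and 304 CPM in c-Met + TAA livers, against 38.9, 208 and 45.3 CPM in c-Met + saline livers. It did not overlap but missed the threshold (log2 fold change 2.10 ± 0.57, adjusted p = 0.137), as did the female-biased P450 Cyp3a44 (log2 fold change 3.53 ± 0.81, adjusted p = 0.0591) and Tox, a DNA-binding protein on the same list that was lower (log2 fold change -2.22 ± 0.52, adjusted p = 0.0591). Cyp2a4 and Cyp2a5 are near-identical copies. Tox passed without c-Met + TAA replicate 2, Cyp3a44 without c-Met + TAA replicate 4 and Cyp2a4 without c-Met + saline replicate 2. Dio1, the deiodinase that activates thyroid hormone, stood at 43.4, 34.1, 44.5 and 34.4 CPM in c-Met + TAA livers, against 138, 118 and 144 CPM in c-Met + saline livers, without overlap, and fell (log2 fold change -1.77 ± 0.31, adjusted p = 0.00588), with the call lost without c-Met + saline replicate 3 (adjusted p = 0.0505).

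**Figure D2:**
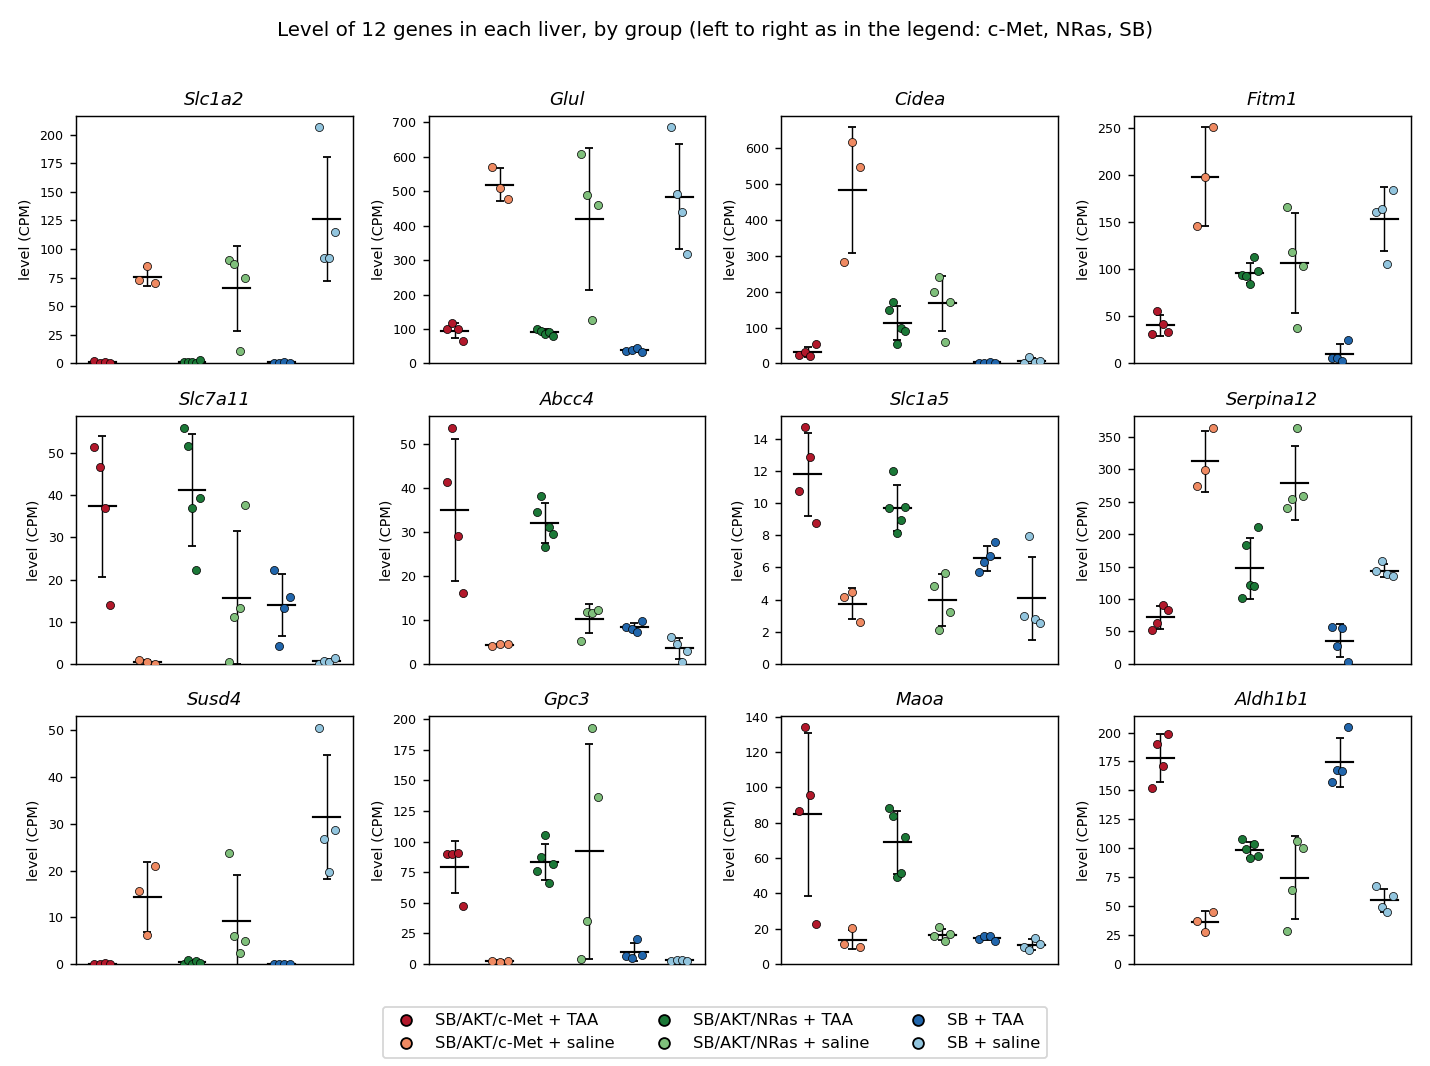
Level of 12 genes in each of the 24 livers. Each panel is 1 gene on a y axis in CPM that starts at 0, with 6 groups from left to right: c-Met + TAA, c-Met + saline, SB/AKT/NRas + TAA, SB/AKT/NRas + saline, SB + TAA and SB + saline; points are livers, the line is the mean and the bar is 1 SD either side. In each panel the 4 c-Met + TAA livers and the 3 c-Met + saline livers do not overlap, as for Glul at 65.2 to 117 CPM with TAA and 477 to 571 CPM with saline.

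Gpc3 rose, the 1 gene to pass on the list of fetal liver and liver cancer markers. Gpc3 (chrX:52272426-52613950), glypican 3, a cell surface proteoglycan of fetal liver and hepatocellular carcinoma, stood at 89.8, 90, 90.4 and 47 CPM in c-Met + TAA livers, against 2.78, 1.71 and 2.62 CPM in c-Met + saline livers. Replicates 1 to 3 of the c-Met + TAA livers were nearly equal, replicate 4 stood at about the midpoint between them and the c-Met + saline livers, and Gpc3 rose (log2 fold change 5.06 ± 0.80, adjusted p = 0.00115); limma-voom gave an adjusted p of 0.167. Afp, alpha-fetoprotein, the serum protein of the fetal liver, stood at 62.6, 50.3, 108 and 51.9 CPM in c-Met + TAA livers, against 2.78, 10.6 and 5.25 CPM in c-Met + saline livers. The groups did not overlap but Afp missed the threshold (log2 fold change 3.40 ± 0.83, adjusted p = 0.0742).

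The noncoding imprinted genes Meg3 (log2 fold change 4.06 ± 0.99, adjusted p = 0.0742), H19 (log2 fold change 5.25 ± 1.63, adjusted p = 0.216) and Rian (log2 fold change 4.06 ± 1.38, adjusted p = 0.299) were each higher in all c-Met + TAA livers than in any c-Met + saline liver without passing. For H19 that was 193 counts with TAA and 3 with saline, a ratio of 43.2 with a 95% exact counting interval of 14.6 to 211. Over the list 1 of 24 tested genes rose, none fell, 22 had a positive fold change and the median was 1.16 (1.01 with genes at 0 counts in a group set to their bound). Its summed levels overlapped, at 654.2 to 1570 CPM with TAA and 304 to 1067 CPM with saline.

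S100g, Bglap3 and Hamp2, which encode small proteins, rose. S100g (chrX:162961992-162964599), calbindin D9k, a vitamin D-regulated calcium buffer of the gut, stood at 16.9, 27.8, 28.5 and 20 CPM in c-Met + TAA livers, against 0.463, 2.39 and 0.749 CPM in c-Met + saline livers. The lowest c-Met + TAA liver was far above the highest c-Met + saline liver and S100g rose (log2 fold change 4.15 ± 0.62, adjusted p = 0.000658). It was the 1 gene to pass of 21 on the list of S100, annexin and keratin proteins, of which 8 had negative fold changes and the median was 0.34. Bglap3 (chr3:88368616-88372743), a relative of the bone protein osteocalcin, stood at 25.7, 31.3, 14.4 and 23.1 CPM in c-Met + TAA livers, against 0.463, 0.683 and 0 CPM in c-Met + saline livers. Its 269 counts with TAA against 3 with saline gave a ratio of 60.2 (95% exact counting interval 20.4 to 294), and it rose (log2 fold change 5.78 ± 1.01, adjusted p = 0.00558), with the call lost without c-Met + saline replicate 3 (adjusted p = 0.0994). Bglap3 has near-identical neighbours, Bglap and Bglap2, so its reads may be split among them.

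Hamp2, a copy of the iron hormone hepcidin, stood at 74.9, 21.8, 22.4 and 215 CPM in c-Met + TAA livers, against 5.09, 4.1 and 4.87 CPM in c-Met + saline livers. Replicates 1 and 4 of the c-Met + TAA livers were high and replicates 2 and 3 low, but none reached the c-Met + saline range and Hamp2 rose (log2 fold change 4.15 ± 0.91, adjusted p = 0.0438). That call was lost without c-Met + saline replicate 1, 2 or 3 or c-Met + TAA replicate 1 or 4 (adjusted p up to 0.256), and Hamp is a near-identical copy. It was the 1 gene of 29 acute phase genes tested to pass, where the median log2 fold change was 0.29.

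Cenpf rose, the 1 gene to pass on the list of mitosis and cytokinesis. Cenpf, a kinetochore protein of dividing cells, stood at 11.5, 23.9, 30.4 and 26 CPM in c-Met + TAA livers, against 3.24, 5.81 and 3.37 CPM in c-Met + saline livers. Replicate 1 was the lowest c-Met + TAA liver and still above each c-Met + saline liver, and Cenpf rose (log2 fold change 2.44 ± 0.53, adjusted p = 0.0407), with the call lost without c-Met + saline replicate 1, 2 or 3 or c-Met + TAA replicate 2, 3 or 4 (adjusted p up to 0.256). All 28 tested genes of mitosis and cytokinesis had positive fold changes, 16 of them at an unadjusted p under 0.05, and the median was 1.21. Summed over the list, the levels were 177 to 344 CPM with TAA and 31.5 to 121 CPM with saline. Tpx2 (log2 fold change 2.44 ± 0.56, adjusted p = 0.0591), Hmmr (log2 fold change 2.19 ± 0.51, adjusted p = 0.0591), Cenpe (log2 fold change 2.55 ± 0.60, adjusted p = 0.0591) and Cdc20 (log2 fold change 2.17 ± 0.52, adjusted p = 0.0725), which act at the spindle or in its checkpoint, did not overlap between groups and missed the threshold.

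Mki67, the gene of the proliferation antigen Ki-67, stood at 11.9, 15.5, 14.1 and 14.7 CPM in c-Met + TAA livers, against 0.925, 8.2 and 7.87 CPM in c-Met + saline livers. Replicate 1 was low among the c-Met + saline livers, the other saline livers came closer to the lowest c-Met + TAA liver, and Mki67 missed the threshold (log2 fold change 1.25 ± 0.54, adjusted p = 0.509). Of 28 genes of DNA replication none passed and 2 were higher at an unadjusted p under 0.05 (median 0.37), and summed levels overlapped, at 296 to 360 CPM with TAA and 241 to 364 CPM with saline. Among 36 cytosolic ribosomal protein genes 32 had positive fold changes, 18 at an unadjusted p under 0.05, the median was 0.39, and 1 rose, Rplp1, a stalk protein of the large subunit (log2 fold change 0.80 ± 0.16, adjusted p = 0.0224). Rpl35, of the large subunit but not on that list, also rose (log2 fold change 0.88 ± 0.16, adjusted p = 0.00708). Leaving out 1 liver ended the call of Rplp1 without c-Met + saline replicate 1, 2 or 3 or c-Met + TAA replicate 1 or 3 (adjusted p up to 0.119) and of Rpl35 without c-Met + saline replicate 1 or 3 (adjusted p up to 0.0995). None of 26 p53 targets passed and 4 were higher at an unadjusted p under 0.05 (median 0.48); Cdkn1a, the cell cycle inhibitor p21, overlapped (log2 fold change 0.57 ± 0.48, adjusted p = 0.8), and Phlda3, a p53-induced inhibitor of AKT, did not (log2 fold change 2.53 ± 0.70, adjusted p = 0.139).

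No gene of scar-forming or immune cells passed the test. Col1a1, the main fibrillar collagen, stood at 22.6, 11.6, 19.3 and 43.9 CPM in c-Met + TAA livers, against 10.2, 22.2 and 31.1 CPM in c-Met + saline livers. The groups overlapped wholly (log2 fold change 0.19 ± 0.66, adjusted p = 0.987) and the sign turned without c-Met + saline replicate 1 or c-Met + TAA replicate 4. Acta2, the smooth muscle actin of activated stellate cells, overlapped too (log2 fold change -0.39 ± 0.81, adjusted p = 0.955). Lum (log2 fold change 1.30 ± 0.44, adjusted p = 0.292), a matrix proteoglycan, and Pdgfra (log2 fold change 1.83 ± 0.54, adjusted p = 0.189), a receptor of fibroblasts, were higher in each c-Met + TAA liver without passing. Of 34 tested stellate and matrix genes none passed and 3 were higher at an unadjusted p under 0.05, with a median log2 fold change of 0.29 and summed levels of 981 to 1286 CPM with TAA and 833 to 1129 CPM with saline.

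All 17 tested genes of monocyte-derived and scar-associated macrophages had positive fold changes with a median of 0.65, 4 at an unadjusted p under 0.05, and none passed. Their summed levels overlapped, at 775.7 to 1288 CPM with TAA and 223.5 to 918.3 CPM with saline. Lgals3, galectin 3, stood at 163, 131, 142 and 90.2 CPM in c-Met + TAA livers, against 10.6, 87.5 and 44.2 CPM in c-Met + saline livers. Replicate 1 of the c-Met + saline livers was far under the other livers, and replicate 2 nearly reached the lowest c-Met + TAA liver (log2 fold change 1.45 ± 0.53, adjusted p = 0.353). Cd63, a lysosomal membrane protein, did not overlap and missed the threshold (log2 fold change 1.80 ± 0.52, adjusted p = 0.174), whereas Adgre1, the macrophage antigen F4/80, overlapped (log2 fold change 0.50 ± 0.33, adjusted p = 0.719). Of 14 Kupffer cell genes and 25 genes of T, NK and B cells none passed, with medians of 0.37 and -0.61, and at an unadjusted p under 0.05 there were 0 Kupffer genes and, of the lymphoid genes, 1 higher and 2 lower. Cd8a had 1 count in the c-Met + TAA livers and 10 in the c-Met + saline livers, a ratio of 0.0671 (95% exact counting interval 0.00155 to 0.472), and missed the threshold (adjusted p = 0.31), as did Gzma, a granzyme of cytotoxic cells (log2 fold change -1.92 ± 0.74, adjusted p = 0.406). Of 13 tested genes of neutrophils and their chemokines, 12 had positive fold changes, none passed and 0 were at an unadjusted p under 0.05. Their summed levels were low and did not overlap, at 20.35 to 48.06 CPM with TAA and 13.49 to 19.47 CPM with saline. Krt19, a bile duct keratin, had 23 counts in the c-Met + TAA livers and 2 in the c-Met + saline livers and missed the threshold (adjusted p = 0.709). Summed genes of sinusoidal endothelium stood at 281 to 293 CPM with TAA and 300.3 to 361 CPM with saline, without overlap, and of the 15 none passed and 2 were lower at an unadjusted p under 0.05.

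**Figure D3:**
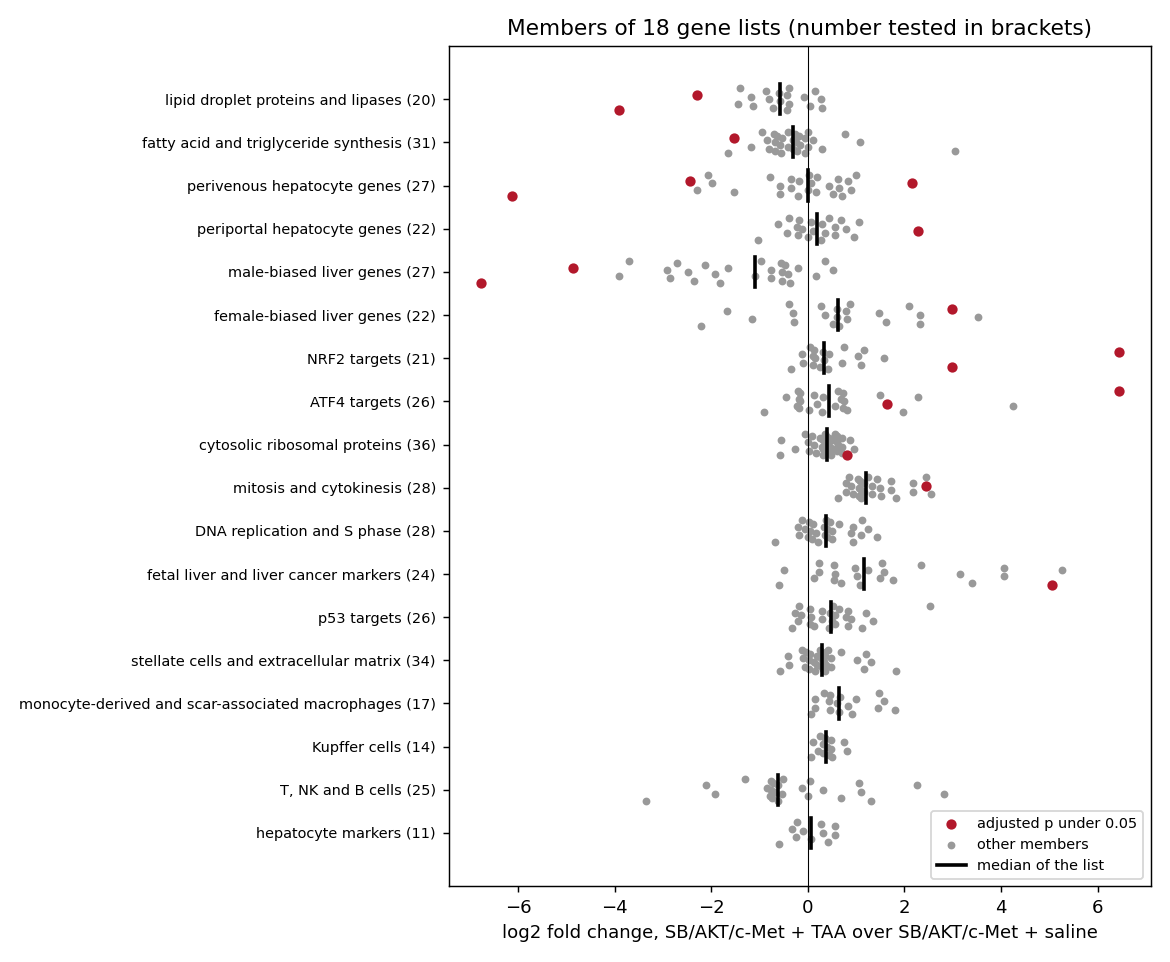
Gene lists in c-Met + TAA livers over c-Met + saline livers. Each row is a list, each point is 1 tested member at its log2 fold change on the x axis, red where it passed the adjusted p and grey where it did not, and the upright bar is the list's median; male-biased and lipid droplet genes have medians of -1.10 and -0.58, mitosis and fetal liver genes of 1.21 and 1.16, and all genes 0.02.

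The remaining called genes have less clear places in liver biology. Acsm4, a medium-chain acyl-CoA synthetase, had 68 counts over the c-Met + TAA livers and 0 over the c-Met + saline livers, which is at least 15.2-fold higher against a floor of 3 counts over the group. Gapdhs, the glycolytic dehydrogenase of sperm, had 26 counts over the c-Met + TAA livers and 0 over the c-Met + saline livers, at least 5.82-fold higher. Both rose (adjusted p = 0.0117 for Acsm4 and 0.0109 for Gapdhs). Each lost its call when any 1 c-Met + saline liver was left out.

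AC152414.2, a gene model with no name, had 58 counts with TAA and 1 with saline and rose (adjusted p = 0.045). Fam25c, a small protein with no established role, stood at 421, 677, 455 and 379 CPM in c-Met + TAA livers, against 129, 210.1 and 175 CPM in c-Met + saline livers and rose (log2 fold change 1.49 ± 0.29, adjusted p = 0.0141). Atpif1, the inhibitor of mitochondrial ATP synthase, stood at 289.9, 312, 324 and 229 CPM in c-Met + TAA livers, against 67.5, 162 and 107 CPM in c-Met + saline livers and rose (log2 fold change 1.36 ± 0.29, adjusted p = 0.0407). Neither overlapped. Adam32 (log2 fold change 2.78 ± 0.55, adjusted p = 0.0191), of the ADAM protease family, Mmd2 (log2 fold change 3.94 ± 0.83, adjusted p = 0.0354) and the gene model 1110038B12Rik (log2 fold change 1.17 ± 0.25, adjusted p = 0.0407) completed the genes that rose.

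Among those that fell, Aqp8, a water channel of hepatocyte membranes, stood at 103, 160.0, 233 and 211 CPM in c-Met + TAA livers, against 238, 519 and 455 CPM in c-Met + saline livers (log2 fold change -1.19 ± 0.25, adjusted p = 0.0394). The highest c-Met + TAA liver, replicate 3, was just under the lowest c-Met + saline liver, replicate 1. Rarres1 (log2 fold change -1.58 ± 0.28, adjusted p = 0.00609), a retinoid-responsive gene, Tenm3 (log2 fold change -1.48 ± 0.29, adjusted p = 0.0164), a teneurin adhesion protein, Tppp (log2 fold change -2.33 ± 0.51, adjusted p = 0.0438), a tubulin-binding protein, and Serpina4-ps1 (log2 fold change -3.74 ± 0.77, adjusted p = 0.0269), a serpin pseudogene whose reads may come from related serpins, also fell without overlap. Each gene named from AC152414.2 to Serpina4-ps1 lost its call without at least 1 liver, most often c-Met + saline replicate 3 or 1 or c-Met + TAA replicate 2. Tppp lost it whichever of the 7 livers was left out (adjusted p = 0.0611 to 0.213) and AC152414.2 for 6 of the 7. Rarres1 lost it only without c-Met + saline replicate 3.

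The threshold cut through a dense run of genes. Of the called genes, Mogat1 (adjusted p = 0.0451) and AC152414.2 (adjusted p = 0.045) stood nearest inside it. Just outside by adjusted p were Slc1a4 and Txndc16, a thioredoxin-domain protein (log2 fold change 1.79 ± 0.41, adjusted p = 0.0557). The next adjusted p was 0.0591. Of the genes named here 7 had that value, namely G6pdx, Lhpp, Cyp3a44, Tox, Tpx2, Hmmr and Cenpe, and it was not theirs alone. The 8 genes that passed by adjusted p with a log2 fold change of at most 1 in size were Rpl35, Rplp1, Gm11478, Gm3511 and Gm10073, which were higher, and Aatf, Hsd17b12 and Ptdss1, which were lower. Among the 21 genes that rose, c-Met + TAA replicate 4 was the lowest of its group in 12, c-Met + saline replicate 1 the lowest of its group in 12 and c-Met + saline replicate 2 the highest in 12.

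TAA was also given to livers with the AKT and NRas plasmids and to livers with the SB plasmid alone. In those, 31 genes (0.16%) passed the same test in SB/AKT/NRas + TAA over SB/AKT/NRas + saline livers and 807 (4.16%) in SB + TAA over SB + saline livers. By adjusted p alone it was 0.175% of genes in AKT/NRas livers and 5.97% in SB livers. The SB genes include skeletal muscle genes, of which SB + TAA replicate 4 held 10950 CPM. All 15 tested muscle genes passed higher in SB livers by adjusted p, with a median log2 fold change of 7.52. How far that library shapes the SB counts and sizes given here was not tested. Of the 46 genes that passed by adjusted p in AKT/c-Met livers, 44 (95.7%) had the same sign in AKT/NRas livers, where 11 also passed, and 44 had the same sign in SB livers, where 25 passed; over all genes 54.1% and 58.6% shared the sign. From the other side, 671 of the 807 genes called in SB livers (83.1%) had the same sign in AKT/c-Met livers, but only 19 passed there. Over all 807, the median log2 fold change in their SB direction was 0.62 in AKT/c-Met livers and 2.32 in SB livers. The 807 were chosen for large changes in SB livers, which by itself makes the size there larger. The groups of these comparisons share no liver.

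Slc1a2 and Glul fell in each kind of liver. Slc1a2 averaged 1.32 ± 0.953 CPM in SB/AKT/NRas + TAA and 65.6 ± 37.3 CPM in SB/AKT/NRas + saline livers (SD, n = 5 and 4), and 0.873 ± 0.241 CPM in SB + TAA and 126 ± 54.3 CPM in SB + saline livers (SD, n = 4 each). Glul fell in both as well, by log2 fold changes of -2.22 and -3.67 (adjusted p = 6.73e-05 and 2.9e-08). Susd4 and Mup11 likewise fell in AKT/NRas livers (adjusted p = 0.00741 and 0.0125) and in SB livers (adjusted p = 4.62e-06 and 0.000127).

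Other genes passed in AKT/c-Met and AKT/NRas livers but not with SB alone. Maoa rose in AKT/NRas livers (log2 fold change 2.05, adjusted p = 0.00275), at 68.9 ± 17.9 CPM in SB/AKT/NRas + TAA and 16.7 ± 3.24 CPM in SB/AKT/NRas + saline livers. It averaged 14.9 ± 1.41 CPM in SB + TAA and 10.9 ± 3.01 CPM in SB + saline livers (adjusted p = 0.557). The same held for Nt5e (adjusted p = 0.00398 and 0.673), Bglap3 (adjusted p = 0.019 and 0.787) and Abcc4 (adjusted p = 0.0125 and 0.0627). None of these 4 passed the test of the difference between the TAA effects in AKT/c-Met and SB livers (adjusted p = 0.21, 0.345, 0.562 and 0.491 in the order named).

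The mitotic genes passed mostly in SB livers. Of the 28 genes, 23 passed higher in SB livers, against 3.46% of all genes, and none in AKT/NRas livers, where the median log2 fold change was 0.04 against 3.06 in SB livers and 1.21 in AKT/c-Met livers. Summed levels were 141 to 327 CPM in SB + TAA and 19.7 to 33.8 CPM in SB + saline livers, so the c-Met + saline livers, at 31.5 to 121 CPM, reached further up than SB + saline livers. The difference between the TAA effects was not tested for the list as a whole.

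Only 5 genes passed a direct test of the difference in TAA effect. Cidea fell more in AKT/c-Met than in AKT/NRas livers (difference of log2 fold changes -3.34 ± 0.59, adjusted p = 0.0447). It averaged 113 ± 46.8 CPM in SB/AKT/NRas + TAA and 167 ± 77.4 CPM in SB/AKT/NRas + saline livers, and 2.86 ± 0.563 and 7.16 ± 7.55 CPM in SB + TAA and SB + saline livers. Gpc3 rose more in AKT/c-Met than in AKT/NRas livers (difference 5.22 ± 0.92, adjusted p = 0.0447), where it averaged 83.1 ± 14.5 CPM with TAA and 92.2 ± 87.7 CPM with saline. The mean in c-Met + TAA livers was 79.3 ± 21.5 CPM (SD, n = 4).

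Ighm, the IgM heavy chain of B cells, differed between those same effects (difference -2.79 ± 0.51, adjusted p = 0.0487). Its levels were 15.7, 25.7, 25.1 and 35.8 CPM in c-Met + TAA livers, against 23.1, 25.3 and 69 CPM in c-Met + saline livers, and it rose in AKT/NRas livers (57.3 ± 15.8 CPM with TAA and 12.9 ± 5.25 CPM with saline). Its fold change in AKT/c-Met livers missed the threshold (log2 fold change -0.61 ± 0.37, adjusted p = 0.67) and turned to 0.07 without c-Met + saline replicate 3, the highest of that group.

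Against SB livers, Ccl5 and Gsta1 differed. Ccl5, a chemokine of T and NK cells, stood at 14.2, 14.8, 17.2 and 7.72 CPM in c-Met + TAA livers, against 10.6, 22.9 and 27.7 CPM in c-Met + saline livers, with overlap (log2 fold change -0.61 ± 0.40, adjusted p = 0.718). It rose in SB livers (29.96 ± 17.8 CPM in SB + TAA and 2.82 ± 2.08 CPM in SB + saline livers), and the difference was -4.06 ± 0.62 (adjusted p = 0.00865). Gsta1, an alpha-class glutathione transferase, stood at 166, 209.9, 182 and 169.8 CPM in c-Met + TAA livers, against 38.4, 262 and 76.1 CPM in c-Met + saline livers. Replicate 2 of the c-Met + saline livers was above each c-Met + TAA liver and the other saline livers were below, and Gsta1 missed the threshold (log2 fold change 0.53 ± 0.45, adjusted p = 0.807). In SB livers it averaged 299 ± 149 CPM with TAA and 14.5 ± 3.01 CPM with saline, and the difference was -3.84 ± 0.65 (adjusted p = 0.0236). The number of genes passing these tests of difference was small and unsteady. It was 2 against SB livers (0.0103% of genes tested), 0 to 18 with single livers left out, and 3 against AKT/NRas livers (0.0155%), 0 to 21. Leaving out SB + saline replicate 1 or 4 gave 0 against SB livers and SB + TAA replicate 2 gave 18, and leaving out SB/AKT/NRas + saline replicate 1 gave 21 against AKT/NRas livers.

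**Figure D4:**
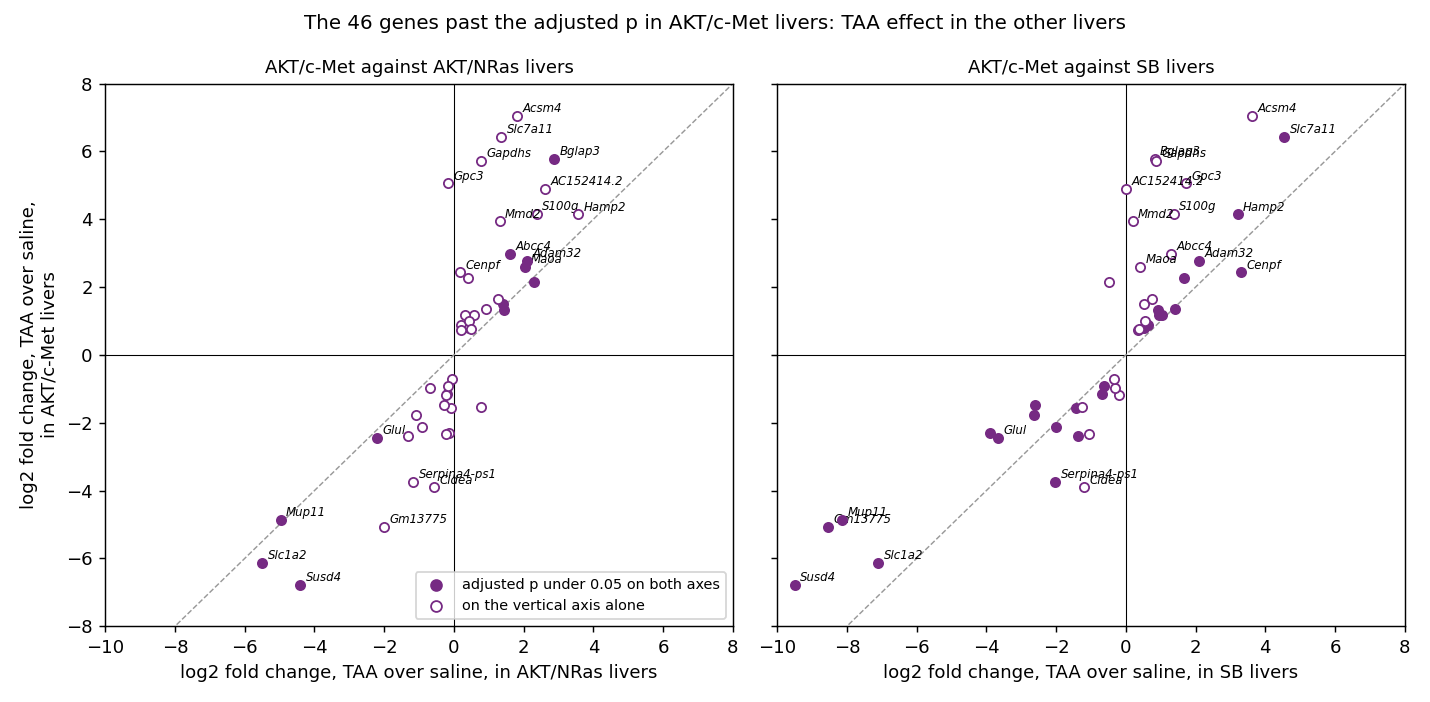
TAA effect in AKT/c-Met livers beside that in other livers. The y axis is the log2 fold change of c-Met + TAA over c-Met + saline livers, the x axis is that of SB/AKT/NRas + TAA over SB/AKT/NRas + saline livers (left) or of SB + TAA over SB + saline livers (right), and each point is 1 of the 46 genes that passed by adjusted p in AKT/c-Met livers, filled where it also passed in the other livers. Of the 46, 11 are filled for AKT/NRas livers and 25 for SB livers, and 44 share the sign in each.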

How the data were processed

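The deposited values are raw counts per gene in 1 table of 24 libraries, made by the authors with no normalization. Per the methods and the processing notes of the submitters, poly-A-primed libraries with molecular tags were sequenced on an Illumina instrument, aligned with STAR to GRCm38 with human transgene sequences added, deduplicated by tag and counted with featureCounts 1.6.4 on the forward strand at a mapping quality of at least 10. Reads that map to several places were thereby left out, so near-identical genes have uncertain counts. A further table holds the same 24 columns (24 of 24 identical) and was not used.

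A gene was tested where 2 or more libraries reached 0.5 CPM (19381 of 53467 genes). After TMM scaling, edgeR 4.0.16 in R 4.3.3 fitted all 24 libraries at once by quasi-likelihood with 6 group means, which share 1 estimate of spread, and contrasts of that fit were adjusted for 19381 genes by the Benjamini-Hochberg method. A called gene has an adjusted p under 0.05 and an absolute log2 fold change over 1, while for list members and single genes the words rose and fell need only the adjusted p. Every library is 1 mouse. The total counts per library were 2152510 to 3399247, and no 2 libraries were identical. Exact binomial intervals at the 95% level and floors of 3 counts over a group cover counting error only. The script was tested on simulated counts with known changes.

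Named genes are those called, members of 46 lists of known genes, and genes that differ between backgrounds. Members and lists were chosen with earlier results of these data known, and a list's count and median are descriptions. Alternatives used limma 3.58.1 (voom), DESeq2 1.42.0, RLE or no scaling factors, other filters, robust estimation, a replicate block, fewer groups and the omission of each liver. Promoters and their build, GRCm38.p6, come from RefSeq (31 of 38 called genes matched). Of the called genes, 1 is counted but not reported here. Expression from the AKT plasmid was not analysed here.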

Additional observations from a re-analysis of the deposited data

Results flagged for a closer look

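In the c-Met + TAA group of 4 livers, 1 liver stood apart from the other 3 by Dixon's test at its 95% critical value for 8 of 99 genes tested. For Susd4 and Cd8a a single count in 1 liver and 0 in the others fixes that outcome, and without genes of that kind it was 6 of 97, where chance gives about 1 in 20. Replicate 4 was the one for Gpc3, low at 47.0 CPM, and for Fasn, high at 455 CPM. Replicate 2 stood apart for Mup11 (458 CPM), Mogat1 (7.03 CPM), Aatf (10.2 CPM, the lowest) and Cd8a (0.352 CPM, the only liver with a count). Replicate 3 stood apart for Susd4 (0.306 CPM, the only liver with a count) and Cd63 (258 CPM). Groups of 3, such as c-Met + saline, were not tested.

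The effect of TAA differed between kinds of liver, by an edgeR quasi-likelihood contrast of 4 groups with Benjamini-Hochberg adjustment, for 5 genes. Relative to SB livers the log2 effect in AKT/c-Met livers differed by -4.06 for Ccl5 and -3.84 for Gsta1. Relative to AKT/NRas livers it differed by -3.34 for Cidea, 5.22 for Gpc3 and -2.79 for Ighm. Their levels stand with the comparisons above, and the cause of the differences was not tested.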

How the results depend on the processing

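The 38 calls of c-Met + TAA over c-Met + saline livers became 84 with DESeq2, 236 with no filter on low counts, 163 with only the 7 AKT/c-Met livers in the fit, and 65 in a fit of the 23 livers other than SB + TAA replicate 4, an omission chosen after seeing the data. Leaving out single livers gave 14 to 40, and other settings 32 to 47. With library size alone in place of TMM, the median of all genes moved by 0.109 on the log2 scale and 34 genes passed. Of the 38 genes, 10 passed under all 16 settings, 28 missed the threshold under at least 1, and none changed sign. The 2 genes whose TAA effect differed from SB livers became 0 with limma-voom and with robust estimation, 17 with DESeq2, 217 with no filter and 21 with only the 4 groups of the contrast, and 0 to 18 with single livers left out; at an unadjusted p under 0.05 there were 1638. The 3 genes that differed from AKT/NRas livers became 1 with limma-voom, 7 with DESeq2, 90 with no filter, and 0 with library size alone, with filterByExpr, with robust estimation or with only the 4 groups, and 0 to 21 with single livers left out; at an unadjusted p under 0.05 there were 1108. The difference passed in 19 of 24 settings for Ccl5, 15 of 24 for Gsta1, 11 of 25 for Cidea, 8 of 25 for Ighm and 7 of 25 for Gpc3, and kept its sign in all of them. The cause of these changes was not tested.

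Signs turned for genes that missed the threshold throughout. Human MET ranged over -0.30 to 0.58 with single livers left out, and had a log2 fold change of -0.16 with limma-voom, -0.38 with the replicate block, the lower end of the range being that without c-Met + TAA replicate 4. Col1a1 ranged over -0.26 to 0.56, with negative values without c-Met + saline replicate 1 and without c-Met + TAA replicate 4. Mouse Met ranged over -0.15 to 0.22, with negative values without c-Met + saline replicate 2 and c-Met + TAA replicates 1 and 3. Akt1 stood at 0.071 with library size alone and ranged over -0.18 to 0.13, with positive values without c-Met + saline replicate 1 and c-Met + TAA replicates 3 and 4. Ighm ranged over -0.87 to 0.069, the upper end without c-Met + saline replicate 3.

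Replicate numbers were shared between groups but no label pairs the livers. Same-numbered livers had a mean correlation of 0.0309 over 3 pairs after the group means were removed, against -0.0103 for 9 pairs of different number, and not every liver correlated best with its own number. With the replicate block 41 genes passed, 32 of them among the 38, and the counts of differing TAA effects were 2 and 3. Depth limits low genes most: with these library totals, a gene at 0 in the 3 c-Met + saline livers could not be told from one at 3 counts over the group.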

Other observations

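Some lists of abundant hepatocyte genes had summed levels without overlap although no member passed edgeR's quasi-likelihood test with Benjamini-Hochberg adjustment. The 41 genes of amino acid breakdown and the urea cycle summed to 15170 to 17420 CPM in c-Met + TAA livers and 11560 to 14700 CPM in c-Met + saline livers. Of them 8 were higher at an unadjusted p under 0.05, where 4.7% of all genes were higher and 3.99% lower. The 36 genes of fatty acid oxidation and PPARalpha signalling summed to 22480 to 26390 CPM with TAA and 31670 to 40930 CPM with saline. Their median log2 fold change was -0.22, with 5 higher and 5 lower at an unadjusted p under 0.05. The 20 tested apolipoprotein and lipoprotein assembly genes summed to 83390 to 89730 CPM with TAA and 99110 to 108400 CPM with saline, with 3 lower at an unadjusted p under 0.05. The 32 genes of the respiratory chain overlapped, at 29450 to 33620 CPM with TAA and 29780 to 32930 CPM with saline. Over all 46 lists, 28 had no member past the adjusted p.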
